A study of Mus musculus with 10 samples.

Results

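The Fc receptors of myeloid cells were represented on a NanoString panel of mouse immune genes by *Fcer1g*, *Fcgr1*, *Fcgr2b*, *Fcgr3* and *Fcgr4*, which are 5 of the 770 gene probes tested. They were chosen by name, as the genes for Fc gamma receptors and their common signaling chain, with earlier results of these data known. All 5 passed a filter at a mean of 20 normalized counts, as did 602 of the 770 probes. The tumors were YUMMER1.7, a mouse melanoma line with mutant *Braf*, grown subcutaneously in 5 *Siah2* WT and 5 *Siah2*-/- male mice of the C57BL/6 background. *Siah2*, a ubiquitin ligase, was missing from all cells of the *Siah2*-/- host and not from the injected melanoma cells, so that both groups carried the same tumor line and no other treatment. The tumors in *Siah2*-/- mice are called *Siah2* KO below, and each tumor is named by its group and replicate number. The sample labels place collection at day 11 and give no age, whereas the design text of the series states day 10 and names another cell line and another knockout mouse, and the groups here follow the sample labels. The panel has no *Siah2* probe, so the genotype could not be checked from the values. Values are normalized counts of whole-tumor RNA, in which more cells of a type and more RNA per cell cannot be told apart.

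Fc gamma receptors bind the constant part of IgG and couple antibody to the functions of phagocytes and NK cells. The chains encoded by *Fcgr1*, *Fcgr3* and *Fcgr4* bind IgG and are activating. They reach the surface and signal together with the common gamma chain (FcRγ), encoded by *Fcer1g*, whose tyrosine-based activation motif (ITAM) is phosphorylated by Src family kinases and recruits the kinase encoded by *Syk*. *Fcgr2b* encodes the inhibitory receptor, which carries a tyrosine-based inhibitory motif in its own tail and recruits the phosphatase encoded by *Inpp5d*. Macrophages and monocytes can carry all of these receptors and set their response to immune complexes by the balance of activating and inhibitory chains. Interferon gamma is known to raise the activating receptors on myeloid cells, and IL-4, IL-10 and TGF-beta are known to raise the inhibitory one. *Fcgr3* and *Fcer1g* are also expressed by NK cells, *Fcer1g* by mast cells, and *Fcgr2b* by B cells.

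In the GRCm38.p6 annotation of RefSeq, *Fcgr2b*, *Fcgr4* and *Fcgr3* lie in this order on chromosome 1 with 0 protein-coding genes between neighbors. *Fcer1g* follows on the same chromosome, with 7 protein-coding genes between it and *Fcgr3*, and *Fcgr1* lies apart on chromosome 3. The 250 bases before the annotated start of each gene are shown for 3 members, since these 3 differed in their response: *Fcgr1* and *Fcgr4*, whose counts did not overlap between the groups, and *Fcgr2b*, whose counts did. The sequences read 5′ to 3′ on the strand of the gene and end just before its start. They cover chr3:96293970-96294219 (minus strand) for *Fcgr1*, chr1:171018676-171018925 (plus strand) for *Fcgr4* and chr1:170976072-170976321 (minus strand) for *Fcgr2b*. Capitals mark matches to a core motif of PU.1, the transcription factor of myeloid cells (GAGGAA, which reads TTCCTC on the other strand). Both strands were searched.
Fcgr1: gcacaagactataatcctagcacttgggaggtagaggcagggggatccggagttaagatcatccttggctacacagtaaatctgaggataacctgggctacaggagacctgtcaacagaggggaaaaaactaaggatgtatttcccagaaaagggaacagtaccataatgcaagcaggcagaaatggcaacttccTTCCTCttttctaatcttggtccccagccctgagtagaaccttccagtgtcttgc
Fcgr4: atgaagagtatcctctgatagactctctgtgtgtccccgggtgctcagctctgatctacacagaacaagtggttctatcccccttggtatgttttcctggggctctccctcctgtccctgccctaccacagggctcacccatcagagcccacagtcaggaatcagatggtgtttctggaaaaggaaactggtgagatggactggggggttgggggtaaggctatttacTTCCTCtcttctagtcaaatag
Fcgr2b: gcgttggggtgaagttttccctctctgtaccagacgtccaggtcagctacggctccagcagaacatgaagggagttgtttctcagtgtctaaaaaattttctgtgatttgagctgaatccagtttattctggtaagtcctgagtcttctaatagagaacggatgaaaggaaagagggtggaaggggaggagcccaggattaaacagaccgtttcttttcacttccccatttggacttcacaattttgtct
The PU.1 core was present in *Fcgr1* between 55 and 50 bases, in *Fcgr4* between 22 and 17 bases and, from the first of its 2 annotated starts, in *Fcgr3* between 6 and 1 bases before the start. It was present in 23.1% of 27025 promoters of the same length. The 250 bases of *Fcgr2b* and *Fcer1g* did not hold these letters. These matches describe the letters alone, as binding was not measured.

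The activating receptors and their signaling chain were higher in *Siah2* KO than in WT tumors with the deposited scaling. The inhibitory receptor was not called. The call of *Fcgr3* was close to the threshold and was lost with median, quantile and positive control scaling. In limma over all 770 probes, 4 of the 5 members, *Fcgr4*, *Fcer1g*, *Fcgr1* and *Fcgr3*, were higher in *Siah2* KO tumors at an adjusted p under 0.05. Of all probes, 31.3% were higher by this rule and 41.0% were called in either direction. The values of *Fcgr4*, *Fcer1g* and *Fcgr1* did not overlap between the groups, as was true, in the same direction, of 24.5% of all probes. The median log2 fold change was 0.72 over the 5 members and 0.24 over all probes.

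*Fcgr4*, the activating receptor for IgG2a and IgG2b in the mouse, had the largest difference of the 5 members. WT tumors 2 to 6 had 1795.21, 1517.4, 1372.99, 1910.93 and 1895.1 normalized counts. *Siah2* KO tumors 1, 2, 3, 5 and 6 had 4753.46, 3763.36, 4140.67, 6307.53 and 4399.91. The 2 groups did not overlap, and *Siah2* KO 5 was the highest of all. The mean was 1698 ± 241 in WT and 4673 ± 983 in *Siah2* KO tumors (SD, n = 5 each), and the fold change on the log2(value + 1) scale was 2.73 (95% interval 2.15 to 3.47, adjusted p = 0.00018 in limma). The exact permutation test over the 252 divisions of the tumors gave p = 0.0079, the smallest it can give. *Fcgr4* ranked 41 of 770 by log2 fold change and kept its call in every alternative scaling, test and filter run and with any single tumor left out.

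*Fcer1g*, the chain that the activating receptors share, rose less. WT tumors 2 to 6 had 1251.2, 1293.31, 1153.7, 1459.52 and 1405.39 normalized counts. *Siah2* KO tumors 1, 2, 3, 5 and 6 had 2329.47, 1964.56, 2385.4, 3006.53 and 2183.75. The groups did not overlap, with a mean of 1313 ± 122 in WT and 2374 ± 389 in *Siah2* KO tumors (SD, n = 5 each). The fold change was 1.80 (95% interval 1.49 to 2.17, adjusted p = 0.00074 in limma, exact permutation p = 0.0079). Its call was lost in one setting, when the tumors were scaled to the spiked-in positive control probes instead of the reference genes (log2 fold change 0.68, adjusted p = 0.21).

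*Fcgr1*, the high-affinity receptor, had 991.64, 1186.13, 1105.98, 1372.41 and 1524.93 normalized counts in WT tumors 2 to 6. *Siah2* KO tumors 1, 2, 3, 5 and 6 had 1842.46, 1740.51, 2001.51, 2708.06 and 1913.82. The groups again did not overlap, and the highest WT tumor, WT 6, came nearest to the lowest *Siah2* KO tumor, *Siah2* KO 2. The mean was 1236 ± 213 in WT and 2041 ± 385 in *Siah2* KO tumors (SD, n = 5 each), a fold change of 1.65 (95% interval 1.30 to 2.09, adjusted p = 0.0044 in limma, exact permutation p = 0.0079). With scaling to the positive control probes this call was lost as well (log2 fold change 0.56, adjusted p = 0.33).

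*Fcgr3*, the low-affinity activating receptor, was at the limit of the test. WT tumors 2 to 6 had 832.66, 836.34, 766.49, 837.84 and 708.43 normalized counts. *Siah2* KO tumors 1, 2, 3, 5 and 6 had 994.9, 1103.57, 1198.38, 1397.41 and 757.83. In the *Siah2* KO group 4 tumors exceeded the highest WT value, and *Siah2* KO 6 lay among the WT tumors. The fold change was 1.34 (95% interval 1.06 to 1.70, adjusted p = 0.047 in limma, exact permutation p = 0.040). The call did not hold with median scaling (log2 fold change 0.16, adjusted p = 0.31), quantile normalization (0.04, adjusted p = 0.77), positive control scaling (0.26, adjusted p = 0.68) or the methods' t-test, with equal variances (adjusted p = 0.059). Without *Siah2* KO 6 the log2 fold change was 0.55 (adjusted p = 0.0046), and leaving out any other single tumor gave values between 0.33 and 0.45 with adjusted p between 0.063 and 0.10.

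*Fcgr2b*, the inhibitory receptor, had 7075.4, 7627.48, 6393.78, 8051.2 and 5965.05 normalized counts in WT tumors 2 to 6. *Siah2* KO tumors 1, 2, 3, 5 and 6 had 7537.99, 7775.46, 8372.28, 9126.82 and 5368.39. The groups overlapped, 2 *Siah2* KO tumors exceeded the highest WT value, and the lowest value of all was that of *Siah2* KO 6. The fold change was 1.08, with a 95% interval from 0.854 to 1.36 (adjusted p = 0.59 in limma, exact permutation p = 0.50), so that an increase of the size seen for *Fcer1g* or *Fcgr4* lay outside the interval. Its log2 fold change was 0.11 with the deposited scaling and −0.16, −0.23 and −0.05 with median, quantile and positive control scaling, and no setting called it.

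**Figure D1:**
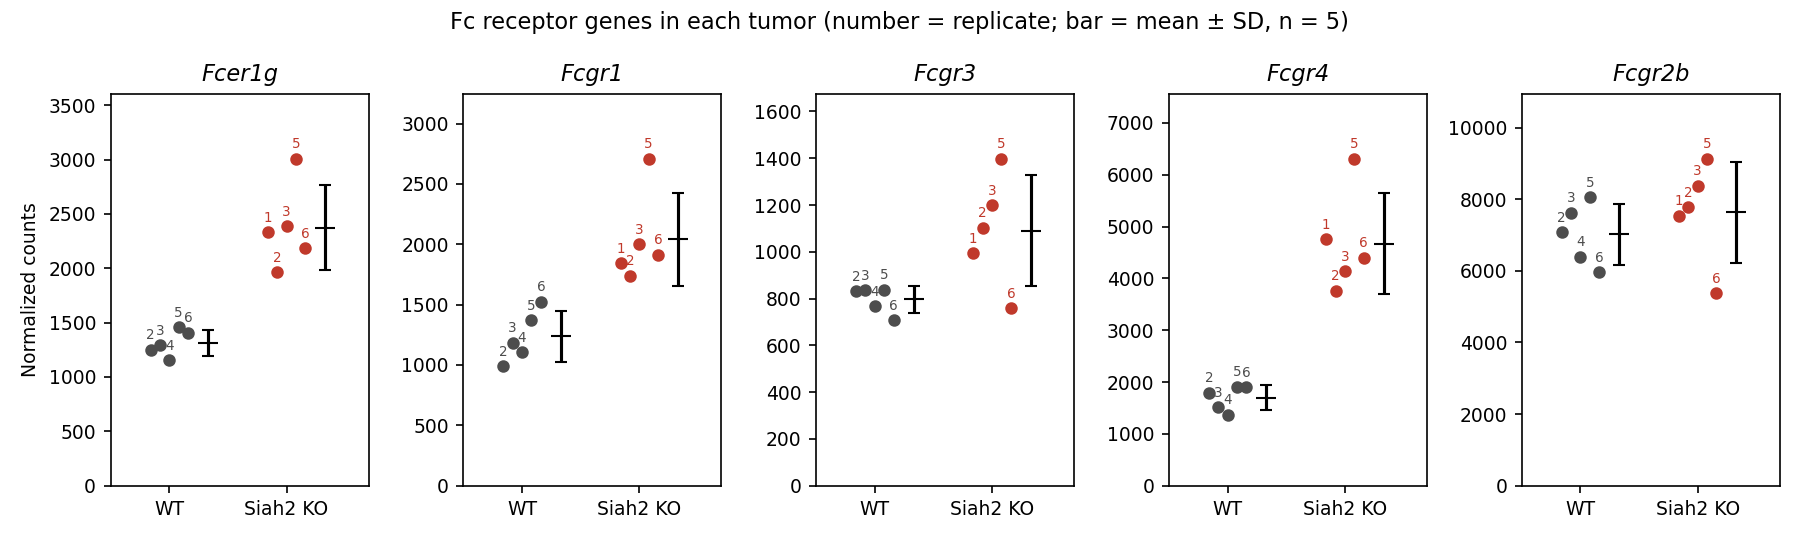
Normalized counts (vertical axes, each from 0 on a linear scale of its own) of the 5 Fc receptor genes in the 5 WT and 5 *Siah2* KO tumors; numbers by the points are replicate numbers, and bars give mean ± SD. The groups are apart for *Fcer1g*, *Fcgr1* and *Fcgr4*, whereas *Siah2* KO 6 lies within the WT range for *Fcgr3* and below it for *Fcgr2b*.

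To follow the balance of activating and inhibitory receptors without any scaling between tumors, the log2 value of *Fcgr2b* was subtracted from that of every other probe in the same tumor, and the 769 differences were tested. A common factor of a tumor cancels in this difference. On this scale 22.9% of all probes were higher in *Siah2* KO tumors at an adjusted p under 0.05, and the median log2 difference over all probes was 0.13. *Fcgr4*, *Fcer1g* and *Fcgr1* passed the test and *Fcgr3* did not.

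The difference of *Fcgr4* and *Fcgr2b* was −1.98, −2.33, −2.22, −2.07 and −1.65 in WT tumors 2 to 6. It was −0.67, −1.05, −1.02, −0.53 and −0.29 in *Siah2* KO tumors 1, 2, 3, 5 and 6. The groups were apart, and the tumor numbered 6 was the highest in either group. *Fcgr4* rose by 1.34 ± 0.19 (SE) on the log2 scale relative to *Fcgr2b*, a 2.53-fold shift of the ratio (adjusted p = 0.00037 in limma, exact permutation p = 0.0079).

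For *Fcer1g* the difference from *Fcgr2b* ran from −2.56 to −2.08 in WT tumors and from −1.98 to −1.30 in *Siah2* KO tumors, without overlap. The shift was 0.74 ± 0.16 (SE, adjusted p = 0.0045 in limma). For *Fcgr1* it was 0.61 ± 0.19 (SE, adjusted p = 0.029 in limma, exact permutation p = 0.032), with WT 6 above 3 of the *Siah2* KO tumors. The adjusted p of *Fcgr1* was above 0.05, between 0.051 and 0.076, when WT 2, WT 3, WT 4, WT 5, *Siah2* KO 5 or *Siah2* KO 6 was left out, with shifts between 0.51 and 0.61.

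*Fcgr3* relative to *Fcgr2b* gave the tightest groups. The difference ran from −3.26 to −3.06 in WT tumors (SD 0.0885) and from −2.92 to −2.71 in *Siah2* KO tumors (SD 0.0759). The groups did not overlap, and *Siah2* KO 6, which had stood apart by its counts, lay within its group at −2.82. The share of all probes without overlap was counted in normalized counts only (24.5%, higher in *Siah2* KO tumors). It was not counted on this scale or relative to *Fcer1g*, macrophage or leukocyte genes, so lack of overlap there does not mark out a member. The shift was 0.32 ± 0.11 (SE), with an adjusted p of 0.053 in limma and an exact permutation p of 0.0079. The methods' t-test, which takes the spread of this gene alone, gave an adjusted p of 0.0033, limma with an intensity trend 0.027, the filter at a mean of 20 gave 0.049 and leaving out *Siah2* KO 6 gave 0.041. With a pseudocount of 10 it was 0.088, and leaving out any other single tumor gave 0.055 to 0.12.

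**Figure D2:**
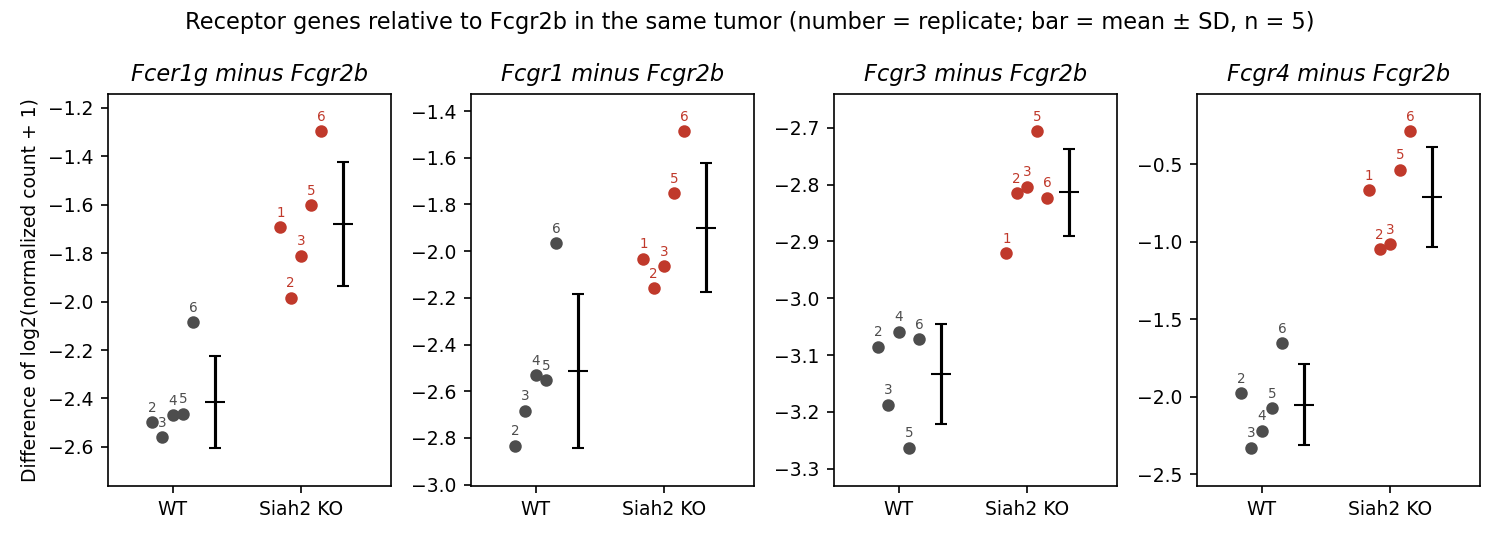
Log2(normalized count + 1) of each activating receptor gene and of *Fcer1g* minus that of *Fcgr2b* in the same tumor (vertical axes, log2 units), by group; numbers are replicate numbers, and bars give mean ± SD. WT and *Siah2* KO tumors do not overlap for *Fcer1g*, *Fcgr3* and *Fcgr4*, and WT 6 reaches into the *Siah2* KO range for *Fcgr1*.

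The ligand-binding chains were also set against *Fcer1g*, the chain they share, a comparison added after the values had been seen. Relative to *Fcer1g*, 5.07% of 769 probes were higher in *Siah2* KO tumors at an adjusted p under 0.05. *Fcgr4* was among them. Its difference from *Fcer1g* ran from 0.23 to 0.52 in WT and from 0.80 to 1.07 in *Siah2* KO tumors, a shift of 0.60 ± 0.10 (SE, adjusted p = 0.00056 in limma, exact permutation p = 0.0079). The rise of *Fcgr4* was thus larger than that of the signaling chain. *Fcgr1* shifted by −0.12 relative to *Fcer1g* (95% interval −0.36 to 0.11, adjusted p = 0.34 in limma). *Fcgr3* shifted by −0.42 ± 0.15 (SE, adjusted p = 0.029 in limma), so that it rose less than the signaling chain. This was not particular to *Fcgr3*, which ranked 287 of 770 from the top by log2 fold change in normalized counts. Most probes thus shifted lower still relative to *Fcer1g*, and the share called lower was not counted. Without WT 2, WT 3, WT 4, *Siah2* KO 1 or *Siah2* KO 6 the shift of *Fcgr3* was between −0.40 and −0.32 and its adjusted p between 0.061 and 0.066.

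Macrophage and leukocyte genes differed between the groups as well, and the members were therefore set against each. Of 8 macrophage genes, *Cd68*, a lysosomal glycoprotein, and *Msr1*, a scavenger receptor, were higher in *Siah2* KO tumors (log2 fold changes 0.87 and 0.92). The mannose receptor gene *Mrc1* and the hemoglobin scavenger receptor gene *Cd163* were lower (−0.89 and −1.86). *Emr1*, which encodes F4/80, and *Csf1r*, the receptor for the macrophage growth factor, were not called (0.27 and −0.02). The summed macrophage genes ran from 7072 to 8799 normalized counts in WT and from 6910 to 11000 in *Siah2* KO tumors. The median log2 level of the list in each tumor was subtracted from every probe. This reference ran from 9.83 to 10.15 in WT and from 9.79 (*Siah2* KO 6) to 10.60 in *Siah2* KO tumors, with overlap, and its group means were 9.93 and 10.26, although the median fold change of the 8 genes was −0.04 on the log2 scale.

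Relative to the macrophage genes, 15.3% of 770 probes were higher in *Siah2* KO tumors and the median over all probes was −0.09. *Fcgr4* rose by 1.12 ± 0.16 (SE, adjusted p = 0.00048 in limma) and *Fcer1g* by 0.52 ± 0.14 (SE, adjusted p = 0.017 in limma), both without overlap of the groups. The interval of *Fcgr1* lay above 0 before adjustment (0.39, 95% interval 0.06 to 0.73), but its adjusted p was 0.074. *Fcgr3* and *Fcgr2b* were not called (0.10 and −0.22, adjusted p = 0.58 and 0.21). With 6 monocyte genes as the reference, *Fcgr4* kept its call, *Fcer1g* lost it (0.15, adjusted p = 0.41), and *Fcgr2b* was lower in *Siah2* KO tumors (−0.58, adjusted p = 0.0046). The monocyte reference itself had a mean log2 level of 8.36 in WT and 9.05 in *Siah2* KO tumors. The share of all probes called lower against it was not counted.

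Of 8 genes of leukocytes in general, 7 were higher in *Siah2* KO tumors, among them *Itgb2* (log2 fold change 1.16), *Cd53* (1.10) and *Ptprc*, which encodes CD45 (0.78). *Cd37* was not called (0.01). Their sum ran from 4643 to 5710 in WT and from 6860 to 10324 in *Siah2* KO tumors, without overlap. Relative to the median of these 8 genes, 10.1% of all probes were higher in *Siah2* KO tumors and the median over all probes was −0.32. *Fcgr4* remained higher by 0.90 ± 0.11 (SE, adjusted p = 0.00028 in limma), and its groups did not overlap. *Fcer1g* was higher by 0.29 ± 0.09 (SE, adjusted p = 0.027 in limma), again without overlap. *Fcgr2b* was lower, with a shift of −0.45 ± 0.14 (SE, adjusted p = 0.026 in limma), with WT 6 within the range of the *Siah2* KO tumors. Its rank by log2 fold change, 483 of 770 from the top, is not changed by the subtraction. Many other probes were thus lower still on this scale, and the share called lower was not counted.

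The calls of *Fcer1g* and *Fcgr2b* on the leukocyte scale were close to the threshold. Leaving out WT 2, WT 3, WT 5, *Siah2* KO 1 or *Siah2* KO 6 put *Fcer1g* at 0.26 to 0.29 with adjusted p between 0.051 and 0.066. Leaving out WT 2, WT 3, WT 4, WT 5 or *Siah2* KO 6 put *Fcgr2b* at −0.43 to −0.38 with adjusted p between 0.051 and 0.060. *Fcgr1* and *Fcgr3* were not called on this scale (0.17 and −0.13, adjusted p = 0.23 and 0.47).

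**Figure D3:**
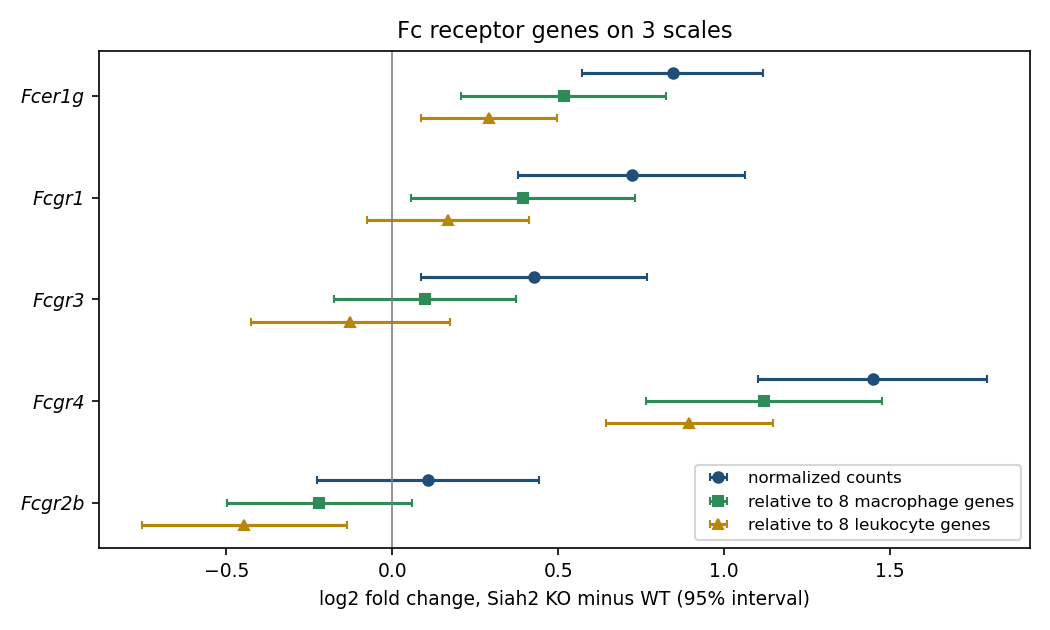
Log2 fold change, *Siah2* KO minus WT (horizontal axis, 95% intervals of single genes from limma, n = 5 per group), of the 5 members in normalized counts and relative to 8 macrophage or 8 leukocyte genes of the same tumor. *Fcgr4* lies above 0 on all 3 scales, with 0.90 as its lowest value, while *Fcgr2b* moves from 0.11 to −0.45.

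Deviations of each tumor from the mean of its group were compared between members over the 10 tumors, as a description of these tumors, which share the same scaling. *Fcgr3* and *Fcgr2b*, neighbors but for *Fcgr4* on chromosome 1, deviated together (Pearson r = 0.94, Spearman rho = 0.96). *Siah2* KO 6 and WT 6 were the lowest of their groups for both genes. *Fcer1g* deviated together with *Fcgr4* (r = 0.90, rho = 0.81) and with *Fcgr1* (r = 0.87, rho = 0.87), with r = 0.74 and 0.76 without *Siah2* KO 2 and *Siah2* KO 5, the 2 tumors farthest from the median of *Fcer1g*. Over all 10 tumors *Fcgr2b* had r = 0.47 with *Fcer1g*, 0.23 with *Fcgr1* and 0.29 with *Fcgr4*, but these low values rested on the tumors numbered 6. Without *Siah2* KO 6 and WT 6, the 2 farthest from the median of *Fcgr2b*, its r was 0.82 with *Fcer1g*, 0.81 with *Fcgr1*, 0.68 with *Fcgr4* and 0.82 with *Fcgr3*. Without *Siah2* KO 5 and WT 4, the 2 farthest from the median of *Fcgr4*, r of *Fcgr4* and *Fcgr2b* was −0.10.

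**Figure D4:**
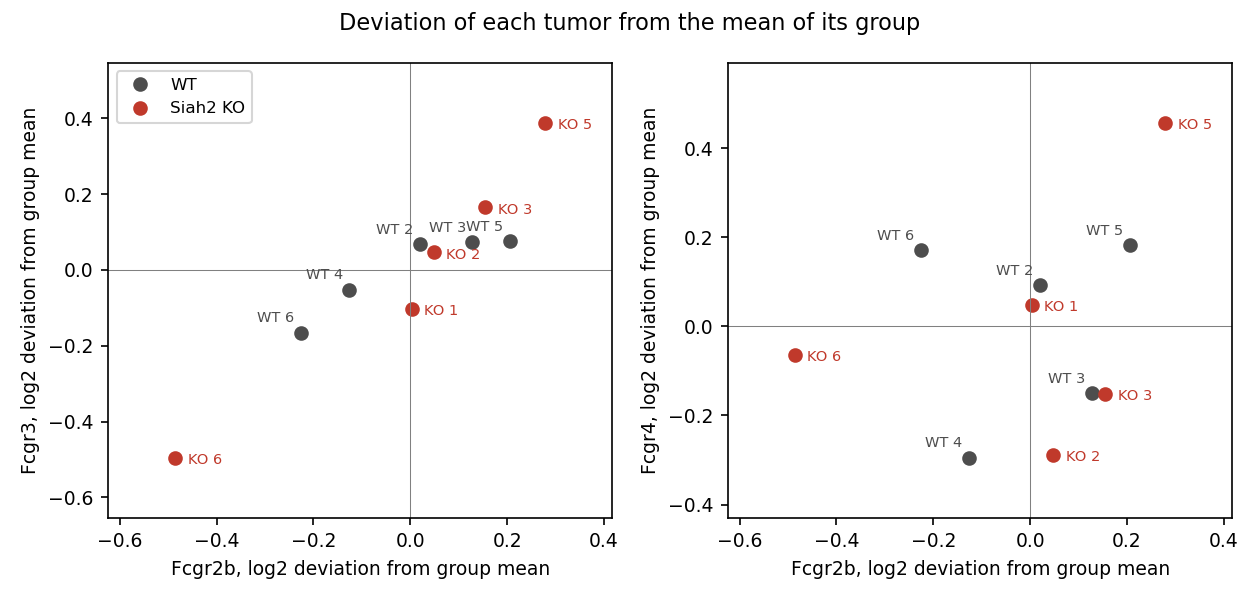
Deviation of each tumor from the mean of its group (log2 units) for *Fcgr3* against *Fcgr2b* (left) and for *Fcgr4* against *Fcgr2b* (right); each point is a tumor. *Fcgr3* follows *Fcgr2b* over the 10 tumors (r = 0.94), with *Siah2* KO 6 at the low end of both, and the r of 0.29 for *Fcgr4* becomes 0.68 without *Siah2* KO 6 and WT 6.

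Among the 601 other probes with a mean of at least 20, the 3 genes whose deviations were most like those of each member were named. For *Fcgr2b* these were *Itgam*, the CD11b chain of complement receptor 3 (r = 0.95), *Fcgr3* and *Abca1*, a cholesterol exporter (r = 0.92). For *Fcgr3* they were *Hcst*, the DAP10 adaptor of NK and T cells (r = 0.96), *Itgam* (r = 0.95) and *Fcgr2b*. For *Fcgr4* they were *Klrd1*, the CD94 receptor chain of NK cells (r = 0.90), *Fcer1g*, and *Emr1* (r = 0.89). For *Fcer1g* they were *Il21r*, the receptor for IL-21 (r = 0.97), *Abcg1*, a cholesterol exporter (r = 0.96), and *Cfb*, complement factor B (r = 0.96). For *Fcgr1* they were *Cd180*, a Toll-like receptor homolog (r = 0.93), *Irak3*, an inhibitor of Toll-like receptor signaling (r = 0.92), and *Clec4a2*, a lectin receptor with an inhibitory motif (r = 0.91). *Itgam* was called higher in *Siah2* KO tumors (log2 fold change 0.76) and *Fcgr2b* was not. The values of r named here are the highest of 601 for each member, over 10 tumors. Without the 2 tumors farthest from the median of the member, these r ran from 0.71 (*Fcgr1* with *Clec4a2*) to 0.98 (*Fcer1g* with *Cfb*).

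The other genes of the pathway were read from lists, by their counts beside the 31.3% of all probes that were higher. These lists were chosen with earlier results of these data known. The lists hold 118 genes, of which 56 were called, and with median, quantile and positive control scaling all of these kept their direction except *Fyn* and *Lamp2*, which turned with quantile normalization. Fewer were called higher with positive control scaling, namely 0 of 10 ITAM genes, 1 of 8 phagocyte genes, 1 of 8 complement genes, 1 of 11 interferon gamma genes, 2 of 6 NK cell genes and 2 of 8 leukocyte genes. With median scaling these counts were 2, 3, 5, 6, 5 and 4. Both median scaling and quantile normalization also called 1 ITAM gene and 1 phagocyte gene lower. Of 5 further receptors that use FcRγ, *Klrb1c*, which encodes NK1.1 (log2 fold change 1.17, adjusted p = 0.0040), and *Ncr1*, which encodes NKp46 (0.53, adjusted p = 0.013), were higher, and both mark NK cells. *Lilra5*, a leukocyte immunoglobulin-like receptor (0.59), *Clec4n*, which encodes Dectin-2 (0.15), and *Fcer1a*, the IgE-binding chain of mast cells (−0.19), were not called. *Fcer2a*, the low-affinity IgE receptor, was near the floor of the assay, with 1 to 12.88 normalized counts in the 10 tumors, and was not called.

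Of 10 kinases and adaptors downstream of the ITAM, 4 were higher with the deposited scaling, all without overlap of the groups, and 0 were lower. Among them were the Src family kinase genes *Lyn* (log2 fold change 0.62, adjusted p = 0.0012) and *Fyn* (0.30, adjusted p = 0.019) and *Syk* (0.52, adjusted p = 0.0053), the kinase that docks on the phosphorylated motif. *Syk* had 478 ± 49 normalized counts in WT and 686 ± 91 in *Siah2* KO tumors (SD, n = 5 each). The adaptor genes *Blnk* (−0.22) and *Card9* (−0.17) had the lowest values and were not called. On the inhibitory side 0 of 4 genes were called. *Inpp5d*, the phosphatase recruited by *Fcgr2b*, had 154 ± 23 normalized counts in WT and 188 ± 58 in *Siah2* KO tumors (SD, n = 5 each, log2 fold change 0.25, adjusted p = 0.33). *Clec4a2* had 0.36 (adjusted p = 0.097) and *Cd22* 0.16, the highest and the lowest of the 4.

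Among 8 genes that phagocytes use after uptake, 6 were higher and 0 lower with the deposited scaling. *Nos2*, inducible nitric oxide synthase, had the highest log2 fold change of the panel at 4.09, from 11.4 ± 5.9 to 220 ± 125 normalized counts (SD, n = 5 each). The oxidase genes *Cybb* (0.91) and *Ncf4* (0.45), the lysosomal protease genes *Ctss* (0.89) and *Ctsl* (0.35), and *Lamp2*, a lysosomal membrane protein (0.31), had adjusted p between 0.0012 and 0.049. *Lyz2*, lysozyme (0.14), and *Lamp1*, another lysosomal membrane protein (−0.06), were not called. Of 8 complement genes, 5 were higher without overlap, namely the receptor chains *Itgb2* (1.16), *Itgax* (0.86) and *Itgam* (0.76) and the anaphylatoxin receptors *C3ar1* (0.86) and *C5ar1* (0.80). *C1qa* (0.22), *C1qb* (0.31) and *C3* (0.62), components of the cascade itself, were not called.

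Of 11 genes that interferon gamma induces, 9 were higher in *Siah2* KO tumors. The highest were *Gbp2b*, a guanylate-binding protein (log2 fold change 2.46), and *Gbp5* (0.999), followed by *Socs1*, a feedback inhibitor (0.98), and *Irf1* (0.91). *Nlrc5*, *Cxcl9*, *Cxcl11* and *Irgm2* rose by 0.82, 0.79, 0.69 and 0.61. *Cxcl10* (0.58) and *Ciita* (0.21) were not called. Of 7 genes of IL-4, IL-13, IL-10 and TGF-beta signals, *Il10ra* was higher (0.55, adjusted p = 0.033), and the cytokine genes *Il4* (−0.78), *Il13* (0.59), *Il10* (0.27) and *Tgfb1* (0.10) and the receptor gene *Il4ra* (0.00) were not called. The call of *Il10ra* was lost with median, quantile and positive control scaling, where 0 of the 7 were called higher. With quantile normalization 3 of the 7 were called lower. *Il4*, *Il13* and *Il10* had means under 20 normalized counts.

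**Figure D5:**
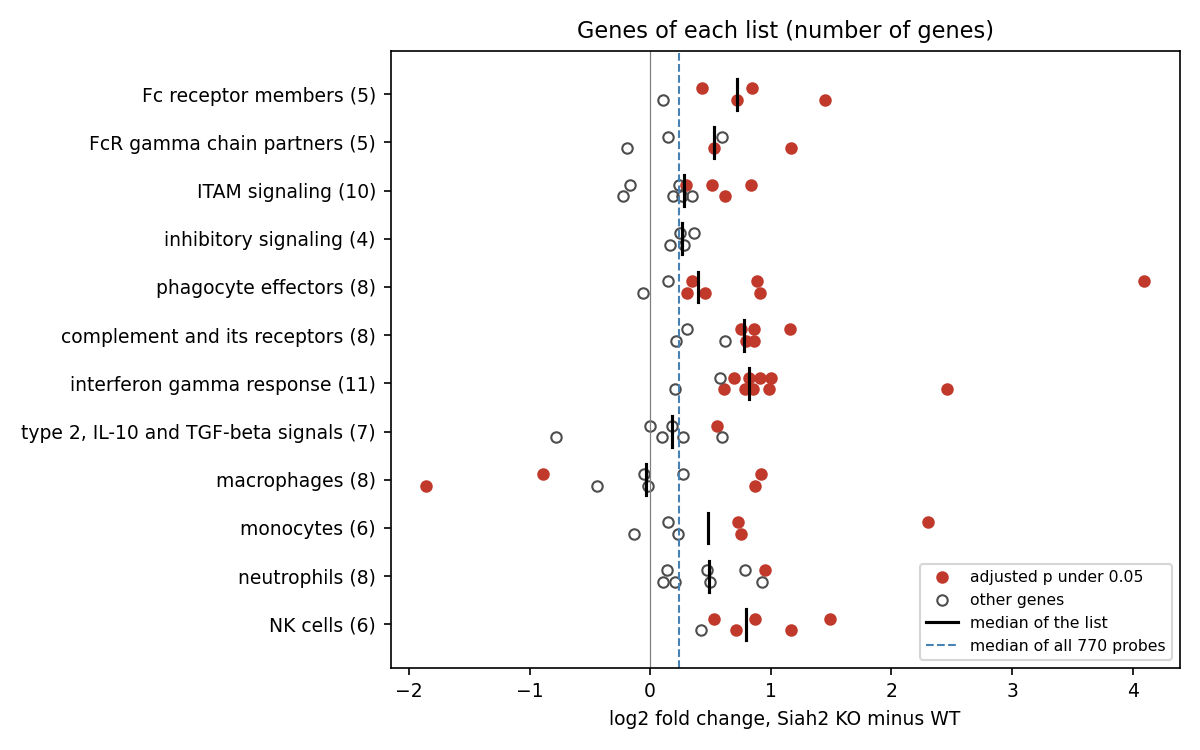
Log2 fold change, *Siah2* KO minus WT (horizontal axis), of every gene of 12 lists (vertical axis, number of genes in brackets); filled points passed an adjusted p under 0.05 in limma, black bars are list medians, and the dashed line is the median of all 770 probes. The Fc receptor, complement, interferon gamma and NK cell lists have medians above 0.7, and the macrophage list spreads to both sides of 0.

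Markers of other cells that carry these receptors moved in part with them. Of 6 NK cell genes, 5 were higher, led by *Klrc1* (log2 fold change 1.49), and their sum ran from 972 to 1239 in WT and from 1675 to 2583 normalized counts in *Siah2* KO tumors. Of 6 monocyte genes, *Fpr2*, a formyl peptide receptor (2.30), *Itgam* and *Cd14* (0.73) were higher, and *Ccr2* (−0.13) and *Lyz2* were not called. The summed monocyte genes ran from 13449 to 18778 in WT and from 13653 to 27654 in *Siah2* KO tumors, with overlap. Of 8 neutrophil genes, *Csf3r* alone was higher (0.95), and the granule genes *Mpo*, *Elane*, *Ltf* and *Camp* had means under 5. The neutrophil sum ran from 455 to 747 in WT and from 325 to 1393 in *Siah2* KO tumors.

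All 8 B cell genes had means under 20, with a summed level of 21.8 to 28.5 in WT and 23.9 to 57.5 in *Siah2* KO tumors. Of 5 mast cell genes, *Ms4a2*, the beta chain of the IgE receptor, was lower (−0.87, adjusted p = 0.049), and the sum ran from 385 to 780 in WT and from 333 to 474 in *Siah2* KO tumors. Of 6 dendritic cell genes, *Itgae* was lower (−1.15), and the sum ran from 202 to 330 in WT and from 107 to 291 in *Siah2* KO tumors. Of 7 T cell genes, 4 were higher, led by *Cd3g* (0.93), with sums of 560 to 717 in WT and 718 to 1343 in *Siah2* KO tumors. The tumor itself could be checked by 3 genes only, since the panel holds no defining pigment gene. *S100b* (−2.39) and *Cspg4* (−0.87) were lower and *Mcam* (−0.17) was not called. *S100b* had a mean of 14.6 normalized counts in WT and 1.72 in *Siah2* KO tumors. The latter was near the floor of the assay, so that the size of its difference is uncertain. The sums of these genes were 438 to 594 in WT and 224 to 405 in *Siah2* KO tumors. The part of interferon gamma, NK cells, monocytes, neutrophils and tumor content in the differences of the members was not tested.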

How the data were processed

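The authors deposited one signal per probe and tumor as normalized counts. RNA of 10 tumors (100 ng each) was hybridized to 784 nCounter probes, of which 750 were endogenous genes, 20 reference genes, 6 positive and 8 negative controls. According to the study's methods, nSolver was used and counts were normalized to the 20 reference genes. A background constant and a floor were read from the values and are not stated in the sources used here. The lowest value of a tumor was its scaling factor where that was above 1, and was 1 where the factor was below 1. Totals before the factor were 382886 to 581580 per tumor, and factors 0.918 to 1.32 in WT and 1.03 to 1.60 in *Siah2* KO tumors. The labels give no batch or cartridge.

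log2(value + 1) of 770 probes was compared with limma 3.58.1 in R 4.3.3 (lmFit, eBayes, two-sided, Benjamini-Hochberg over all probes, threshold 0.05), beside exact two-sided permutation tests. The steps were tested on simulated data. Tumors are the replicates. Lists and members were chosen with earlier results of these data known. Some genes of the lists are not reported here. Otherwise named are the members, *Fcer1a* and *Fcer2a*, in each list the called genes and up to 2 of the highest and lowest, and the 3 genes most like each member.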

Additional observations from a re-analysis of the deposited data

Results flagged for a closer look

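In 2 of 48 groups of 5 tumors examined, 1 tumor stood apart by Dixon's criterion at the 95% level, which chance meets in about 1 of 20 groups. *Fcer1g* relative to *Fcgr2b* was −2.08 in WT 6 and between −2.56 and −2.46 in the other 4 WT tumors. *Fcgr2b* relative to the leukocyte genes was 3.47 in WT 6 and between 3.89 and 3.97 in the others.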

How the results depend on the processing

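Of 23 results, 391 values were computed over 20 settings, and 331 kept their direction and their side of the threshold or, for counts, stayed within 1.5 times. *Fcgr4* kept its call on all 5 scales in every setting run. Median scaling gave 315 called genes (163 higher, 152 lower) and quantile normalization 334 (153 and 181), beside 316 (241 and 75) with the deposited scaling, while positive control scaling gave 95 (60 and 35). The median log2 fold change of all probes was 0.24 with the deposited scaling and −0.01, −0.04 and 0.08 with these. With them *Fcgr2b* reversed to −0.16, −0.23 and −0.055, and *Fcgr3* lost its call at 0.16, 0.045 and 0.26. *Fcer1g* (0.68) and *Fcgr1* (0.56) lost theirs with positive control scaling only, and the methods' test kept *Fcgr3* at 0.43 but not its call. The cause was not tested.

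Relative to *Fcgr2b*, *Fcgr3* stayed at 0.32 and was called with the filter at a mean of 20, the methods' test and an intensity trend. Relative to macrophage genes, *Fcgr1* (0.39) was called with the trend. With monocyte genes as the reference *Fcer1g* lost its call (0.15), *Fcgr3* reversed (−0.26) and *Fcgr2b* was called lower (−0.58).

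The replicate numbers do not pair the tumors by the labels. Deviations of same-numbered tumors had r of 0.051, 0.14, 0.18 and 0.49 for numbers 2, 3, 5 and 6, and not every tumor was most like the one with its own number. With the number as a replicate block, on the 8 tumors that share one, 235 genes were called, and 232 in the same tumors unpaired, an alternative added after seeing the data. In both, *Fcgr3* (0.44), *Fcer1g* relative to macrophage genes (0.49) and to leukocyte genes (0.29), *Fcgr2b* relative to leukocyte genes (−0.44) and *Fcgr3* relative to *Fcer1g* (−0.36) were no longer called. Unpaired, *Fcgr1* relative to *Fcgr2b* (0.64) was not called either.

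Leaving out each tumor in turn gave 268 to 334 called genes. Over these fits *Fcgr3* ranged from 0.33 to 0.55, *Fcgr1* and *Fcgr3* relative to *Fcgr2b* from 0.51 to 0.75 and from 0.29 to 0.35, *Fcgr1* relative to macrophage genes from 0.30 to 0.47, *Fcer1g* and *Fcgr2b* relative to leukocyte genes from 0.26 to 0.31 and from −0.54 to −0.38, and *Fcgr3* relative to *Fcer1g* from −0.49 to −0.32. Each of these lost or gained a call in at least 1 fit. *Fcgr3* relative to *Fcgr2b* was called without *Siah2* KO 6 (0.32, adjusted p = 0.041), and *Fcgr1* relative to macrophage genes without *Siah2* KO 2 (0.47, adjusted p = 0.042). Low signal limits, among others, *Fcer2a*, *S100b*, *Ms4a2* and the B cell genes, and 39 to 84 probes per tumor lay at the floor.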
